A study of Rattus norvegicus with 60 samples.

Results

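Gene expression in the amygdala of male rats was compared between postnatal day 21 (P21) and postnatal day 7 (P7). The comparison used all 20 amygdala arrays of these ages out of the 60 arrays of the study: 5 HR and 5 LR arrays at P21, set against 5 HR and 5 LR arrays at P7. HR and LR are lines selectively bred on a Sprague-Dawley background, known for high and low locomotor response to an unfamiliar environment. The labels give no treatment and no altered allele, so the groups differ by age and by line, and both lines descend from selected stock with no unselected line beside them. The tissue was dissected from frozen thick sections, guided by stained neighbouring sections, and total RNA was copied into Cy3-labelled cDNA for single-colour NimbleGen arrays. The 10 P14 amygdala arrays (5 HR and 5 LR) were not part of the comparison and are used only to place intermediate levels. Age differences are given as log2 of P21 over P7 with line in the model, and the call rule was a Benjamini-Hochberg adjusted p below 0.05 in limma, which fits a linear model across all rows.

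In the third postnatal week the rodent forebrain changes from building its circuits to insulating and refining them. Oligodendrocytes, the myelin-forming glia, begin to wrap axons, astrocytes and microglia mature, and late-born neurons switch off growth cone and migration genes. The amygdala, a set of nuclei that assigns threat and reward value to stimuli, contains glutamatergic neurons in its basolateral part and mostly GABAergic, peptide-rich neurons in its central part. In a bulk dissection, a change in the number of cells of a type and a change in RNA per cell cannot be told apart.

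Median intensity per array lay between 62.9 and 72.2, and arrays of a group correlated at r = 0.946 to 0.974 on the log2 scale over 17519 rows. Array 36, an LR sample at P21, stood apart from its group with a median correlation of 0.948, against 0.970 to 0.971 for the other LR arrays at P21. Without it 4954 rows were called, against 4928 with it. The labels give 5 samples per line and age. The column names carry codes that are not explained there, and 13 of the 20 arrays share the first part of a code with another array (5 such parts within a group, 2 across the ages). Arrays with a shared part may not be independent, so the p-values reflect only how far these samples vary. With that part as a random block, 4897 rows were called and every named result kept its call and direction. The tables carry no detection flags, so the sizes of differences are uncertain for genes near or below the median row, whose intensity was 64.8. The array numbers in the column names run with age: the P7 arrays are numbers 51 to 60 and the P21 arrays 31 to 40. The labels do not say how arrays were grouped on slides or in batches, and runs of 12 consecutive numbers are an assumed grouping. Counted so, no run held both ages, and age and array run cannot be told apart within the 20 arrays. The P14 arrays share runs with either age, and a fit over all 30 amygdala arrays with the run as a block gives a second estimate that rests on few arrays (LR array 36 against 37 to 40 at P21, and LR arrays 46 to 48 against 49 and 50 at P14). Of these, arrays 47 and 48 also had low median correlations with their group (0.934 and 0.928) and low median intensities (64.3 and 61.4), as array 36 did. Without arrays 47 and 48 that fit called 355 rows. Of 128 named results, 63 then lost their call with the direction kept, and 6 turned and were not called. The counts of that fit with all 30 arrays are given for the gene lists as the run-blocked counts. A gene said below to be called in the run-blocked fit was called with all 30 arrays. Such a call was not always kept without arrays 47 and 48, also where this is not stated.

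The P21 amygdala differed from the P7 amygdala at 4928 of 17519 rows, or 28.1%, with 2972 rows higher and 1956 lower at P21. Of these, 1054 differed by more than 2-fold. The first principal component of the 20 arrays held 29.7% of the variance and separated the ages, with scores of 19.3 to 45.9 at P21 against -39.0 to -27.9 at P7. The second held 11.6% and separated the lines, at 10.8 to 34.8 in HR against -24.4 to -13.7 in LR. All 10 P21 arrays lay above all 10 P7 arrays at 743 rows (4.24%), and all lay below at 296 rows (1.69%). With 1 row per gene, the brightest, 17.2% of 15643 genes were higher at P21 and 11.2% lower, and among genes brighter than the median row these shares were 28% and 16.2%. Every count of gene list members from the 20-array fit below is to be read against these shares. The run-blocked fit called 1460 rows, 1243 higher and 217 lower, and moved the median difference of all rows to 0.24, against 0.02 in the 20-array fit. Run-blocked counts of list members are to be read against these 1243 and 217 of 17519 rows. As 85.1% of its calls were higher, few lower members are to be looked for in any list. Quantile normalization gave 2550 higher and 2334 lower rows.

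**Figure D1:**
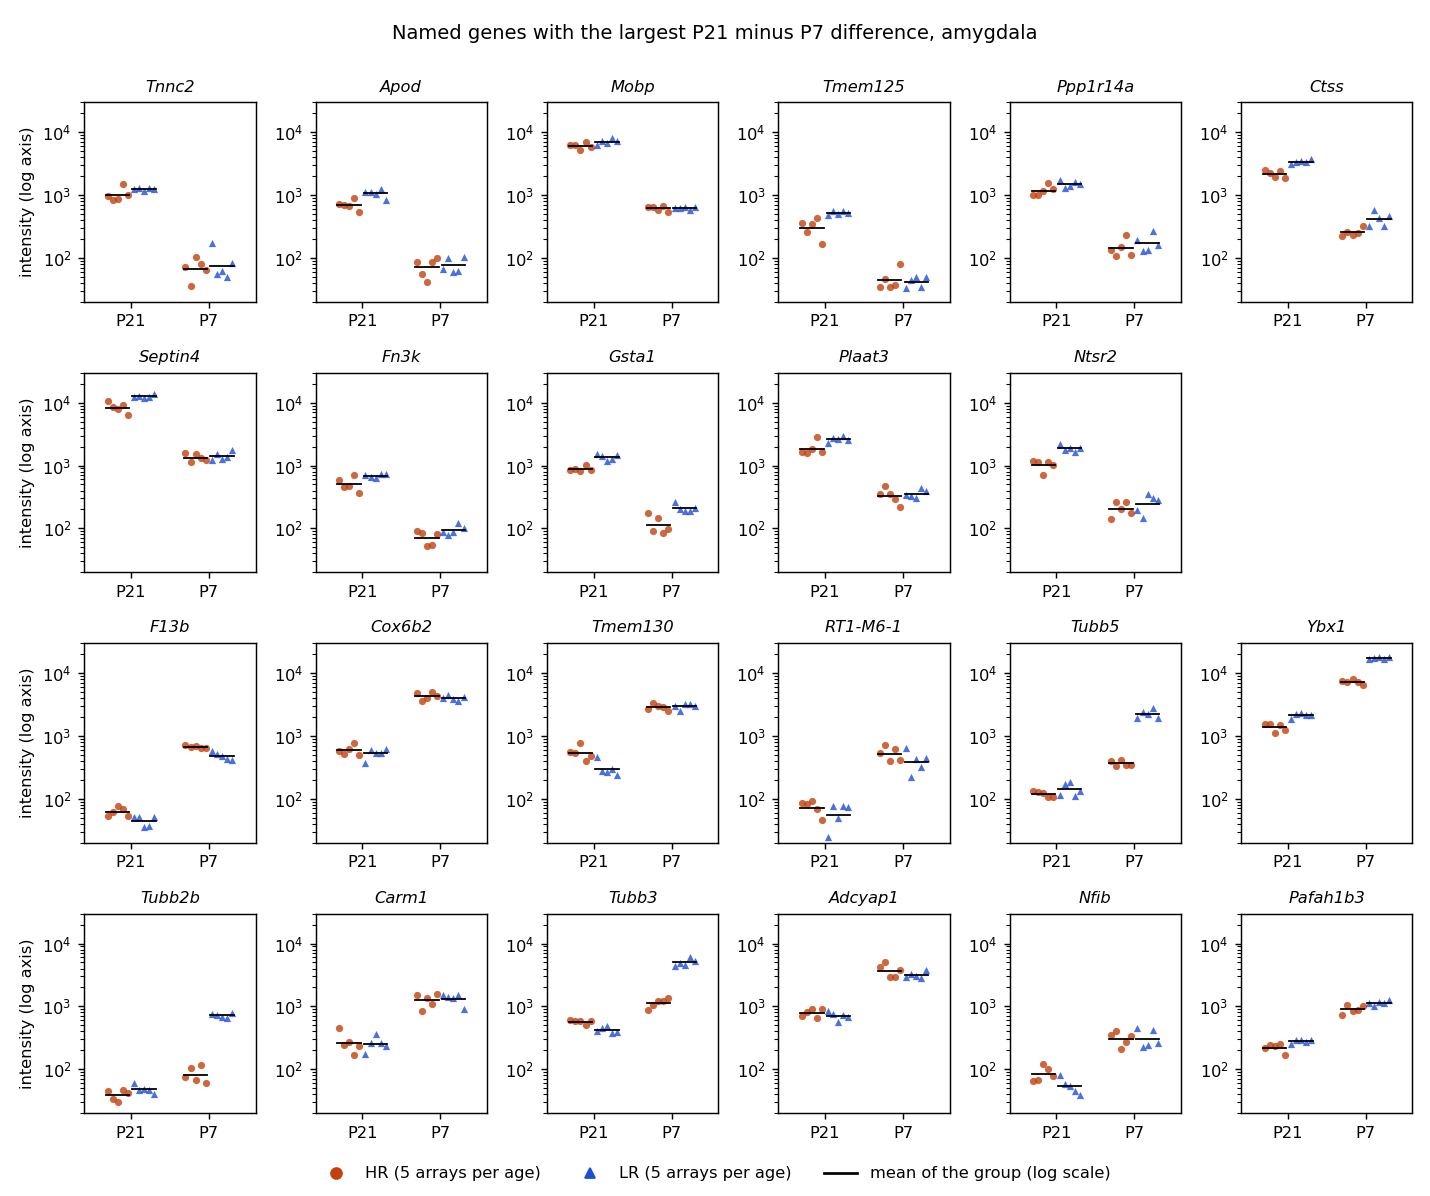
Intensity on a log axis of 11 named genes with the largest higher and 12 with the largest lower values at P21, for each of the 10 P21 and 10 P7 arrays (HR circles, LR triangles, black bars the group means). In each panel the 10 P21 arrays lie wholly above or wholly below the 10 P7 arrays, as the choice of genes required.

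Myelin genes were among those with the largest higher values at P21. Mobp, a structural gene of central myelin, lay between 5240.2 and 8080.0 at P21 (median 6534), against 538 to 668 at P7 (median 634). This is a log2 difference of 3.41 ± 0.10 (SE, adjusted p = 3.64e-18), and a second row of Mobp was also called higher. The plot of the named genes shows that no P21 array came near a P7 array for it.

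The other 10 genes named among those with the largest higher values included glial and lipid genes. Apod, the gene of a lipid-carrying apolipoprotein made by glia, lay between 549 and 1244 at P21 (median 865), against 41.4 to 102 at P7 (median 75.98), a difference of 3.56 ± 0.17. Ctss, which encodes the lysosomal protease cathepsin S of microglia, lay between 1876 and 3696 at P21 (median 2790.0), against 221 to 577 at P7 (median 321), with 3.08 ± 0.12. Ntsr2, a neurotensin receptor gene, differed by 2.64 ± 0.17 and Septin4, of the septin cytoskeleton, by 2.89 ± 0.12. The remaining genes were Tnnc2, the troponin C gene of fast muscle, at 3.98 ± 0.20, Tmem125 at 3.21 ± 0.19, Ppp1r14a, which encodes an inhibitor of myosin phosphatase, at 3.09 ± 0.15, Fn3k, the gene of a protein-deglycating kinase, at 2.86 ± 0.14, the glutathione transferase gene Gsta1 at 2.81 ± 0.13 and the phospholipase gene Plaat3 at 2.69 ± 0.14. A second row of Fn3k was not called, and Gsta1 has near-identical family members, so its value is uncertain. All 11 named here were called in the run-blocked fit too, at log2 values between 2.42 (Gsta1) and 4.74 (Tnnc2).

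The 12 genes with the largest lower values at P21 held 3 beta-tubulin genes. Cox6b2, an isoform gene of cytochrome c oxidase known from testis, lay between 366 and 773 at P21 (median 563), against 3540.1 to 5079.7 at P7 (median 4148), a difference of -2.91 ± 0.12 (SE, adjusted p = 4.76e-15). Ybx1, which encodes a Y-box RNA-binding protein, lay between 1122 and 2288 at P21 (median 1723), against 6489.7 to 18386 at P7 (median 11509), with -2.71 ± 0.12 and a second row that was also lower. Adcyap1, the gene of the neuropeptide PACAP, lay between 571 and 916 at P21 (median 744), against 2812 to 5059 at P7 (median 3122), a difference of -2.19 ± 0.12 (SE, adjusted p = 1.26e-12). The beta-tubulin genes Tubb5, Tubb2b and Tubb3 differed by -2.81 ± 0.27, -2.50 ± 0.32 and -2.30 ± 0.28, Tmem130 by -2.87 ± 0.16 and Pafah1b3, of the brain platelet-activating factor hydrolase, by -2.02 ± 0.11. Tubulin genes resemble each other closely enough that probes may mix them, and a second row of Tmem130 was not called.

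For 4 of these 12 genes the lower value was not held in the run-blocked fit. F13b, a clotting factor subunit gene, differed by -3.43 ± 0.12 in the 20 arrays and by -0.89 in the run-blocked fit, where it was not called. Carm1, an arginine methyltransferase gene, was at -2.32 ± 0.17 and -0.96, and Nfib, a transcription factor gene, at -2.19 ± 0.18 and -0.58. The class I histocompatibility gene RT1-M6-1 was at -2.83 ± 0.21 and turned to 0.50. None of the 4 was called with the run as a block, and second rows of F13b, Carm1 and Nfib were not called in the 20 arrays. The P14 median of F13b was 52.98, against 51.996 at P21, and that of Nfib 86.4, against 66.5 at P21. The other 8 remained called lower.

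**Figure D2:**
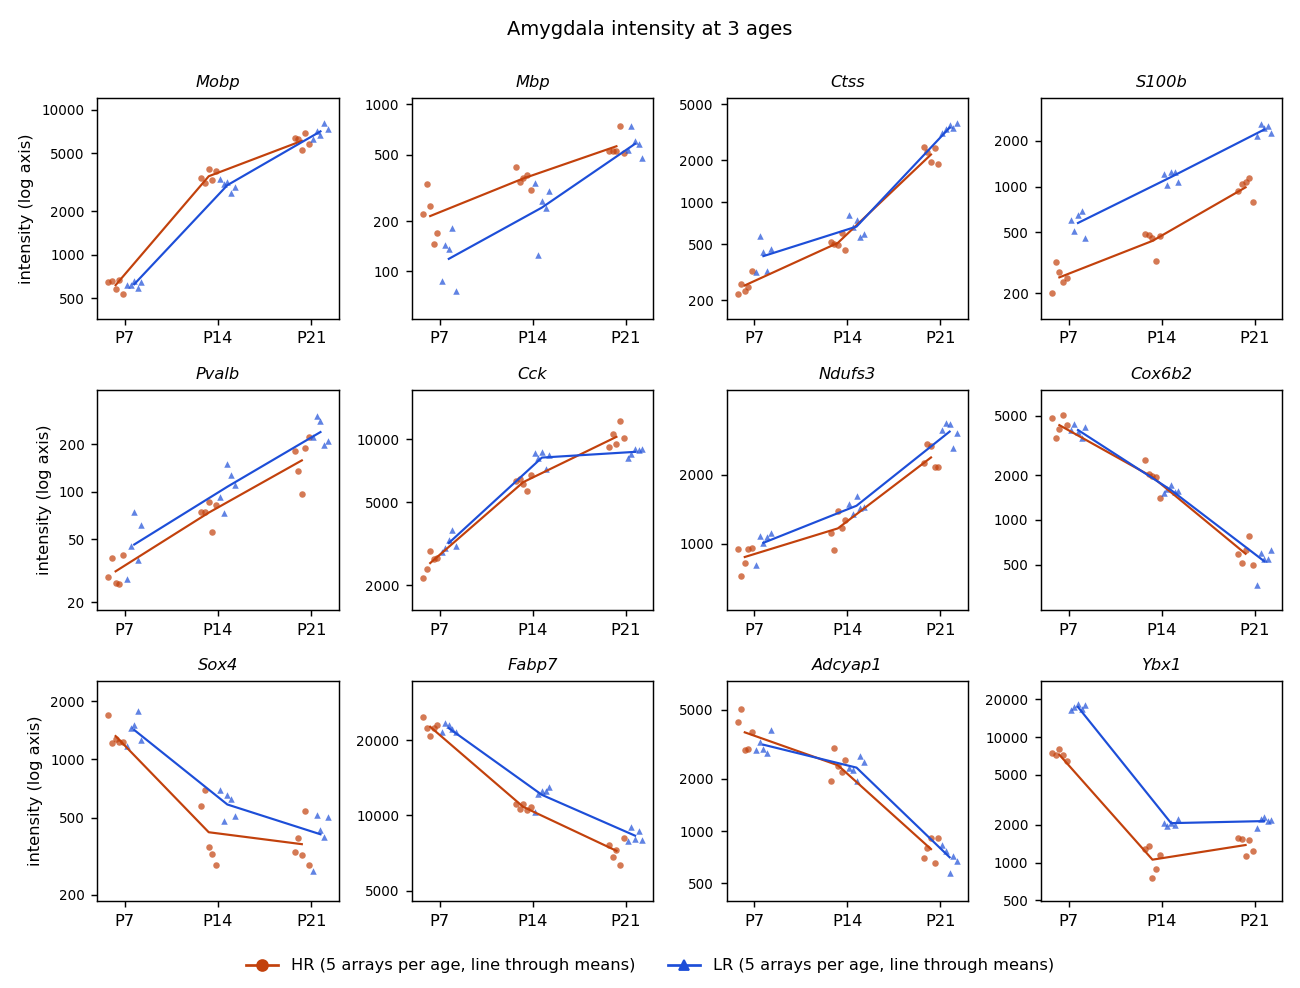
Intensity on log axes of 12 genes at P7, P14 and P21 in HR (circles) and LR (triangles), 5 arrays per line and age, with lines through the group means. Mobp and Cox6b2 had intermediate levels at P14, while Ybx1 was at P14 already near its P21 level.

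Myelin and oligodendrocyte genes formed the list with the highest median difference of the 39 described. Of 25 measured members 18 were higher at P21, 1 was lower and 6 were not called, with a median of 0.97, against 0.02 over all rows. Mbp, the gene of myelin basic protein, lay between 478 and 748 at P21 (median 531), against 76.1 to 333 at P7 (median 158), a difference of 1.84 ± 0.19 (SE, adjusted p = 3.65e-08). The chaperone gene Cryab differed by 2.21 ± 0.17 and the actin-severing gelsolin gene Gsn by 2.06 ± 0.15. Aspa, Cldn11, Klk6, Nkx6-2, Mal, Tspan2, Enpp6, Mag, Car2, Mog, Gpr37, Bcas1 and Gal3st1 were higher as well, by 0.58 to 1.87. Among the 6 members not called were Cnp, Gjb1, Nfasc, Ermn and the lineage factor Sox10, with values between -0.20 and 0.20. Fa2h, which makes the hydroxylated fatty acids of myelin lipids, was lower, at -0.61 ± 0.18, but its P21 mean of 49.99 lay below the median row and it turned to 1.02 in the run-blocked fit. The run-blocked count was 13 higher and 0 lower. Without arrays 47 and 48 the run-blocked fit no longer called Mbp and Gsn.

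Precursor genes of the same lineage were mostly not called. Of 8 measured oligodendrocyte precursor genes 0 were higher and 1 was lower averaged over the lines (0 lower in HR alone and 1 in LR). That gene was Cspg5, a brain proteoglycan gene, which lay between 883 and 1212 at P21 (median 999), against 1085 to 2228 at P7 (median 1499), a difference of -0.60 ± 0.13, and was not called in the run-blocked fit. Olig2, Gpr17 and Sox6 were at 0.12, 0.14 and 0.15 and were not called. Intensities of Gpr17 (mean 43.7 at P21 and 39.6 at P7) lay below the median row at both ages. Of the 1054 rows over 2-fold, the 718 higher ones had covered a median of 33.6% of their change by P14 (quartiles 12.1% and 60.9%), and the 336 lower ones 71.2% (50.2% and 95.0%). These shares describe rows chosen for their P21 minus P7 difference. In the assumed runs, 5 HR and 3 LR arrays at P14 lie with 4 LR arrays at P21. Only 2 LR arrays at P14 lie with the P7 arrays. The part of the run in these shares was not tested, so they need not give the timing of the changes.

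Astrocyte genes were higher where they were called on average over the lines. Of 22 measured members 9 were higher at P21 and 0 lower, with a median of 0.26. In HR 9 were higher and 1 lower, in LR 7 higher and 0 lower, and the change of 2 differed between the lines. S100b, which encodes a calcium-binding protein of astrocytes, lay between 793 and 2577 at P21 (median 1565), against 201 to 694 at P7 (median 385), a difference of 2.001 ± 0.12 (SE, adjusted p = 2.07e-12). Cst3, the gene of the protease inhibitor cystatin C, lay between 23712 and 35746 at P21 (median 30950.3), against 8146 to 10451 at P7 (median 9823), with 1.68 ± 0.10. The angiotensinogen gene Agt differed by 1.07 ± 0.14 and the clusterin gene Clu by 0.89 ± 0.12. The defining markers Gfap, Aqp4, Gja1 and Aldh1l1 were not called, at 0.14, 0.24, 0.16 and 0.03, and the first 3 had mean intensities of 49.4 to 61.3 at P21, under the median row. In the run-blocked fit S100b and Cst3 were the only 2 members called, and Cst3 was no longer called there without arrays 47 and 48.

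Microglial genes were called in both directions. Of 15 measured microglia genes 6 were higher and 2 lower. Ctss is described above. C1qa, a chain of the complement starter C1q, lay between 649 and 1122 at P21 (median 912), against 144 to 261 at P7 (median 228), a difference of 1.97 ± 0.13 (SE, adjusted p = 1.56e-11). Aif1, the gene of the microglial protein Iba1, lay between 397 and 665 at P21 (median 458), against 89.9 to 216 at P7 (median 167), with 1.601 ± 0.15, and C1qb differed by 0.91 ± 0.15. The receptor genes Csf1r, Cx3cr1, P2ry12 and Tmem119 were not called, with values between -0.08 and 0.28. Cd68 and Cd53, with P21 means of 76.7 and 49.7, were lower, at -0.52 ± 0.15 and -0.59 ± 0.20 and stood at 0.0174 and 0.0144 in the run-blocked fit, which called 3 members higher and 0 lower. Cd53 was not called without array 36, 52 or 56.

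Complement and class I antigen presentation genes counted 7 higher and 1 lower of 15, with a median of 0.44. Cd47, which encodes a signal that restrains engulfment, lay between 232 and 412 at P21 (median 357), against 85.1 to 189 at P7 (median 120.4), a difference of 1.503 ± 0.13 (SE, adjusted p = 1.21e-09). B2m, the light chain gene of class I molecules, lay between 7751 and 10097 at P21 (median 9139), against 3449 to 6709 at P7 (median 5299), with 0.83 ± 0.11, and the class I gene RT1-A2, one of several similar copies, differed by 0.92 ± 0.15. Tap1, a peptide transporter gene, was lower, at -0.56 ± 0.17 at intensities near the median row. The run-blocked count was 4 higher and 0 lower. Endothelial and mural genes had 3 higher and 1 lower of 13, among them the tight junction gene Cldn5 at 1.02 ± 0.24 and the thyroid hormone transporter gene Slco1c1 at 0.96 ± 0.15. Both were called in the run-blocked fit, which had 2 higher and 0 lower, and neither was called there without arrays 47 and 48. The change of Cldn5 differed between the lines, and was more positive in HR than in LR by 1.90.

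**Figure D3:**
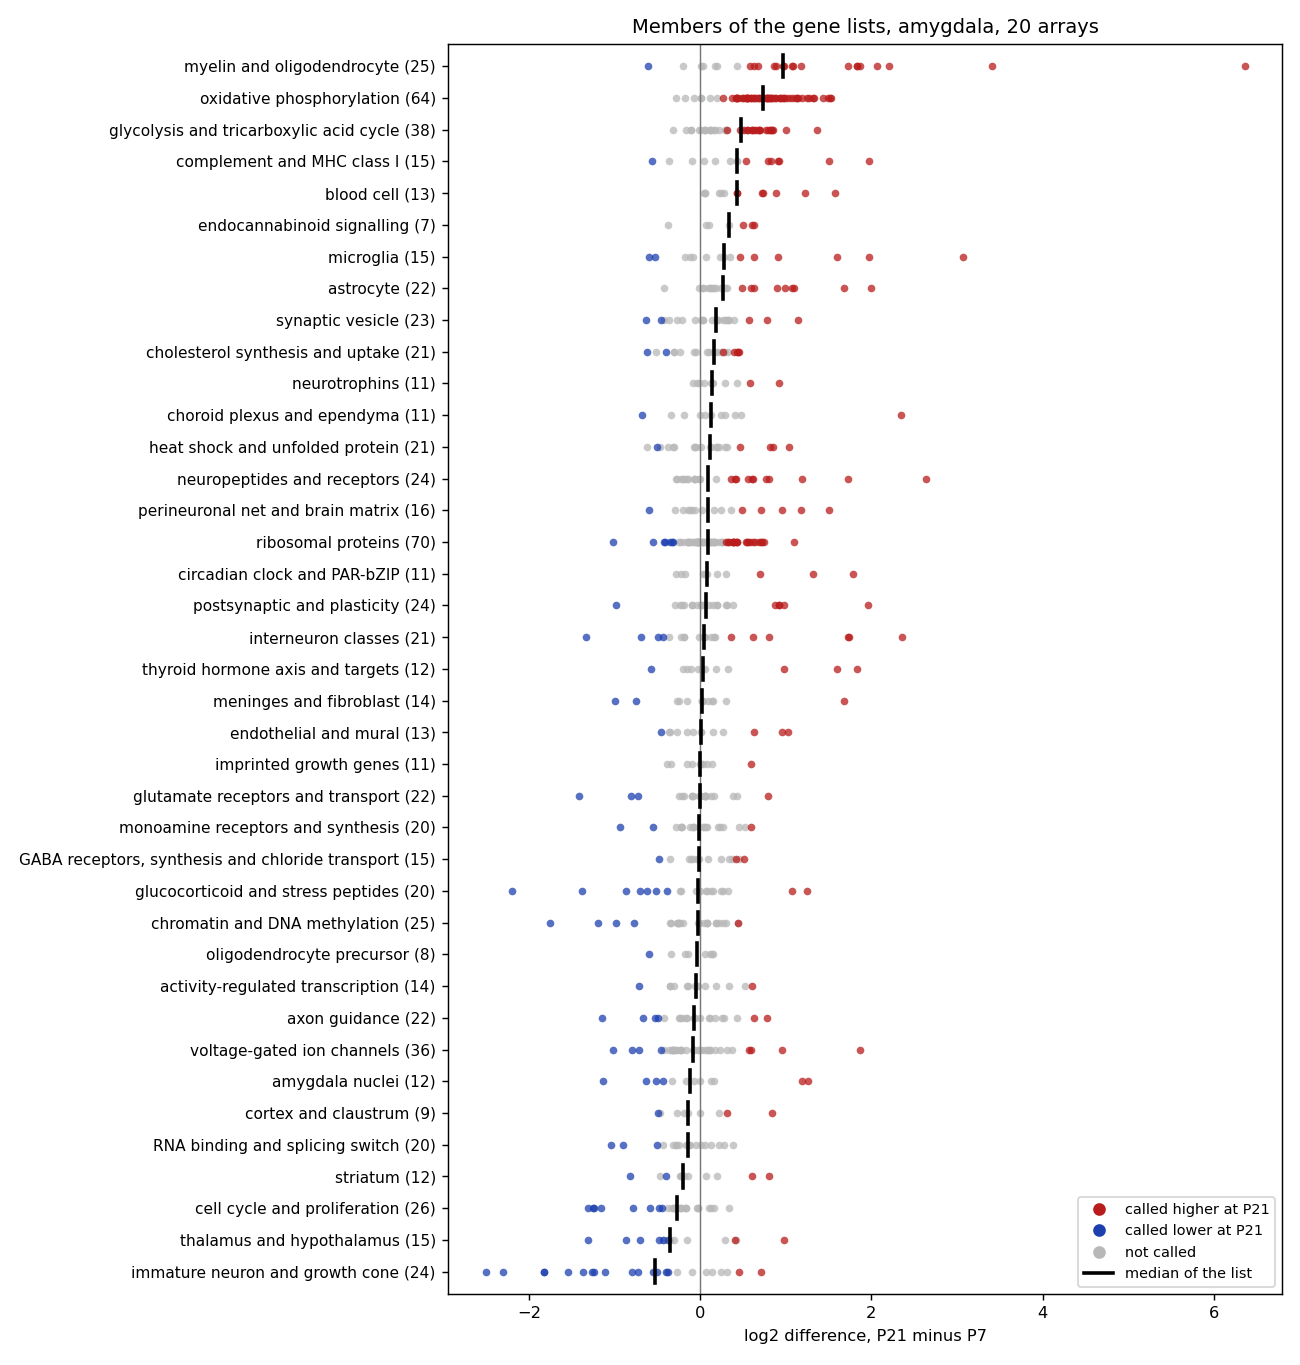
Log2 difference of P21 minus P7 for each measured member of the 39 gene lists (points, coloured by call) with the median of each list (black bar) and the number of measured members in parentheses. Lists run from myelin and oligodendrocyte genes at the top (median 0.97) to immature neuron and growth cone genes at the bottom (median -0.53).

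Genes of immature neurons and growth cones were mostly lower at P21. Of 24 measured members 15 were lower, 2 higher and 7 not called, with the lowest median of the lists at -0.53. Their summed intensity lay between 32137 and 37613 at P21, against 68341 to 88094 at P7. Fabp7, the fatty acid-binding protein gene of radial glia and young astrocytes, lay between 6300.3 and 9014 at P21 (median 7914), against 20739 to 24758 at P7 (median 22379.9), a difference of -1.54 ± 0.10 (SE, adjusted p = 8.25e-12). Tmsb10, which encodes an actin-sequestering thymosin, lay between 4566 and 6275 at P21 (median 5209.7), against 11775 to 15988 at P7 (median 13523), with -1.37 ± 0.10. Sox4, a transcription factor gene of differentiating neurons, lay between 264 and 541 at P21 (median 395), against 1181 to 1783 at P7 (median 1266), with -1.83 ± 0.14 (SE, adjusted p = 3.09e-10). Stmn1, the gene of the microtubule-destabilising protein stathmin, differed by -1.24 ± 0.11. In all 4 the P21 and P7 arrays did not overlap. Gap43, Basp1, Cd24, Stmn2, Tuba1a, Tubb2a, Elavl4, Dbn1 and Ncam1 were lower too, by values between -1.83 and -0.37. The 2 higher members, Neurod6 at 0.71 ± 0.24 and Dpysl3 at 0.45 ± 0.14, had P21 means of 65.7 and 56.3, and array 35 alone gave Neurod6 a value of 289 against at most 71.4 on the other P21 arrays. Neurod6 was not called without array 54, a P7 array, at 0.65. The run-blocked count was 9 lower and 0 higher.

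Of 26 measured cell cycle genes 8 were lower and 0 higher, with a median of -0.27. Hmgb2, a chromatin gene of dividing cells and the brightest member called, lay between 1017 and 3355 at P21 (median 2226), against 4359 to 6292 at P7 (median 4722), a difference of -1.31 ± 0.17 (SE, adjusted p = 9.04e-07). Cdk1, the kinase gene that drives entry into mitosis, lay between 25.2 and 41.9 at P21 (median 33.6), against 48.3 to 141 at P7 (median 79.7), with -1.25 ± 0.17, and Kif20a and Ube2c, both of late mitosis, differed by -1.25 ± 0.16 and -1.16 ± 0.16. A second row of Hmgb2 was not called. The standard marker Mki67 was at -0.02 and not called, at mean intensities of 47.2 at P21 and 47.9 at P7, below the median row. Hmgb2 alone was called in the run-blocked fit, where Ube2c turned to 0.21. Chromatin and DNA methylation genes had 4 lower and 1 higher of 25, with Smarca4, the ATPase gene of the BAF remodelling complex, at -1.75 ± 0.20 and Dnmt1, the maintenance methyltransferase gene, at -0.98 ± 0.15. Smarca4 was called lower in the run-blocked fit, though not without arrays 47 and 48, and Dnmt1 was not called.

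Averaged over the lines, genes of the list of neuropeptides and receptors were higher at P21 in 11 of 24 measured cases and lower in 0. The list leaves out Adcyap1, Ucn, Oxt, Avp, Crh and Pmch, neuropeptide genes that were called lower and are counted in other lists. In HR 6 were higher and 3 lower, in LR 10 higher and 1 lower, and the change of 6 differed between the lines. Cck, the cholecystokinin gene, lay between 8196 and 12236 at P21 (median 9112), against 2159 to 3679.8 at P7 (median 2903), a difference of 1.73 ± 0.11 (SE, adjusted p = 2.15e-11). Cartpt, which encodes the CART peptide of central amygdala and other neurons, lay between 741 and 1181 at P21 (median 1019.8), against 349.7 to 623 at P7 (median 424), with 1.19 ± 0.12. Both were called in the run-blocked fit, which had 6 higher and 0 lower, but Cartpt was not called there without arrays 47 and 48. Npy was higher by 0.36 ± 0.09 but not called in the run-blocked fit, and Sst, at -0.18, was not called. The median of the list was 0.10, and the 13 members not called lay between -0.28 and 0.19.

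Among interneuron genes 6 of 21 were higher and 4 lower. Pvalb, the parvalbumin gene of fast-spiking interneurons, lay between 96.3 and 304 at P21 (median 205), against 26.2 to 74.9 at P7 (median 37.4), a difference of 2.35 ± 0.18 (SE, adjusted p = 1.67e-10). Cort, which encodes the somatostatin relative cortistatin, lay between 211 and 354 at P21 (median 305), against 59.8 to 202 at P7 (median 97.1), with 1.73 ± 0.18. Calb2, the calretinin gene, was lower, and lay between 69.5 and 114 at P21 (median 85.7), against 96.02 to 467 at P7 (median 231), with -1.34 ± 0.21. Calb2 averaged 95.1 in HR at P21 against 137 at P7, and 78.4 in LR at P21 against 347 at P7, and the changes differed by 1.62 ± 0.27. All 3 were called in the run-blocked fit, which had 5 higher and 1 lower, but Cort was not called there without arrays 47 and 48. The synthesis gene Gad2 was higher by 0.52 ± 0.15 at intensities under the median row, and of 15 GABA synthesis, receptor and chloride transport genes 2 were higher, 1 lower and 12 not called. In the run-blocked fit 0 of the 15 were called, and Gad2 stood at 0.26. The chloride exporter gene Slc12a5 and the importer gene Slc12a2, whose balance sets the sign of GABA responses, were at 0.09 and -0.12 and not called. Only 4 of the 15 genes lay above the median row, so a lack of a call is uncertain for most of this list.

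Stress peptide and glucocorticoid genes had more lower than higher members, 7 against 2 of 20. Adcyap1, described above, was the largest. Ucn, the urocortin gene, lay between 52.6 and 115 at P21 (median 61.1), against 127 to 229.7 at P7 (median 171), a difference of -1.38 ± 0.15 (SE, adjusted p = 7.77e-08). Oxt and Avp, the oxytocin and vasopressin genes, differed by -0.87 ± 0.14 and -0.70 ± 0.15, and Crh, the corticotropin-releasing hormone gene, by -0.52 ± 0.16. Crhbp, which encodes the protein that binds and buffers that hormone, was higher and lay between 147 and 248 at P21 (median 198), against 67.6 to 115 at P7 (median 84.3), with 1.25 ± 0.12. Hsd11b1, whose enzyme regenerates active glucocorticoid, lay between 307 and 616 at P21 (median 413), against 134 to 340.0 at P7 (median 197), with 1.07 ± 0.17. In the run-blocked fit Adcyap1 was the only member called lower and Hsd11b1 the only one called higher, while Crh turned to 0.46. Without arrays 47 and 48 that fit no longer called Hsd11b1. Crhr1, Crhr2 and Fkbp5 were not called, at 0.27, 0.07 and -0.05.

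Synaptic and channel genes were mostly not called. Above the median row lay 12 of 24 postsynaptic, 12 of 23 vesicle and 13 of 36 channel genes. For the dimmer members a lack of a call is uncertain. Of 24 postsynaptic genes 5 were higher and 1 lower. Itpka, an inositol trisphosphate kinase gene of dendritic spines, lay between 827 and 1225 at P21 (median 1019), against 151 to 355 at P7 (median 278), a difference of 1.96 ± 0.14 (SE, adjusted p = 6.58e-11). Nrgn, the neurogranin gene, differed by 0.98 ± 0.14 and the scaffold gene Dlg2 by 0.87 ± 0.17. Camk2b, a kinase subunit gene, was lower averaged over the lines, at -0.99 ± 0.21. Its change was more positive in HR than in LR by 1.73, and in HR 0 members of the list were called lower, in LR 2. With the run as a block 3 were higher and 1 lower. Of 23 vesicle genes 3 were higher and 2 lower, with the vesicle glycoprotein gene Sv2a at 1.15 ± 0.14, and 2 higher and 0 lower with the run as a block. Snap25 and Syt1 were not called, and Snap25 was dim, at mean intensities of 61.7 at P21 and 74.4 at P7. Of 36 ion channel genes 4 were higher and 4 lower, and 3 and 1 with the run as a block. Kcna1, a potassium channel gene of axons, lay between 1225 and 1968 at P21 (median 1629), against 249 to 619 at P7 (median 461), with 1.87 ± 0.12 (SE, adjusted p = 2.27e-11). Cacna1h, a T-type calcium channel gene, was lower, at -1.02 ± 0.18, and was called higher in the run-blocked fit at 1.66. Without arrays 47 and 48 that fit had it at 1.29, not called, so its direction depends on the fit.

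Glutamate receptor and transporter genes had 1 higher and 3 lower of 22, and 1 and 2 with the run as a block. The higher gene was Gria2, which encodes the AMPA receptor subunit that blocks calcium entry, at 0.79 ± 0.16. Cacng2, the AMPA receptor partner stargazin, was lower, at -1.41 ± 0.20 and stood at 0.0931 in the run-blocked fit. Of 11 neurotrophin genes Bdnf was higher at 0.92 ± 0.18 and its receptor gene Ntrk2 at 0.58 ± 0.13. Only Bdnf of the list was called in the run-blocked fit, and it was not called there without arrays 47 and 48. Perineuronal net and matrix genes had 5 higher and 1 lower of 16, and 4 and 0 with the run as a block. Sparcl1, the gene of the synapse-promoting protein hevin, lay between 2473 and 3566 at P21 (median 3146), against 493 to 2172 at P7 (median 1038), a difference of 1.51 ± 0.19. Bcan, which encodes the net proteoglycan brevican, lay between 13207 and 17894 at P21 (median 14702), against 5797 to 7719 at P7 (median 6734), with 1.18 ± 0.10 (SE, adjusted p = 3.07e-09). Both were called in the run-blocked fit, but Sparcl1 was not called there without arrays 47 and 48.

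Oxidative phosphorylation genes rose in most cases. Of 64 measured members 57 were higher at P21, 0 were lower and 7 were not called, with a median of 0.74. The share among genes brighter than the median row was 28%. By complex, 30 of 31 genes of complex I, 9 of 9 of complex III, 8 of 9 of complex IV and 10 of 15 of the ATP synthase were higher, with medians of 0.80, 0.68, 0.77 and 0.49. Summed intensity lay between 475883 and 528094 at P21, against 308824 to 336640 at P7, so the arrays of the 2 ages did not overlap. In HR 51 were higher and 0 lower, in LR 50 higher and 3 lower, and the change of 15 differed between the lines. The run-blocked count was 27 higher and 0 lower.

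Promoters of these genes are shown because most of the genes were higher at P21. Each sequence is the 250 bases before the annotated start, from RefSeq (build GRCr8), printed 5′ to 3′ on the gene's strand, with matches in capitals. In Ndufa11 (chr9:1637364-1637613, plus strand) and Atp5po (chr11:44657484-44657733, minus strand) capitals mark the palindromic site of the nuclear respiratory factor NRF1, which was searched in that exact spelling. In Cox7a2 (chr8:89601150-89601399, minus strand) and Uqcrh (chr5:134790883-134791132, minus strand) they mark CCGGAAG or its reverse complement, the core of ETS factor sites.
Ndufa11: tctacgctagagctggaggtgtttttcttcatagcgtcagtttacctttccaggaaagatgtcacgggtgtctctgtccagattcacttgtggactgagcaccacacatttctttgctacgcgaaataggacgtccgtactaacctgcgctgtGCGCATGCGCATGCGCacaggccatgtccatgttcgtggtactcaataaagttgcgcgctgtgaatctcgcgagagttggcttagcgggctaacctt
Atp5po: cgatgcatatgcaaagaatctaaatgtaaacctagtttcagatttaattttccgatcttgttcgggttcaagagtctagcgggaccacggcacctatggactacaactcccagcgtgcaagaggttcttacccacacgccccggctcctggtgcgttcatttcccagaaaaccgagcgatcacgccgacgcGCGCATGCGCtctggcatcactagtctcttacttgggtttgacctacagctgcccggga
Cox7a2: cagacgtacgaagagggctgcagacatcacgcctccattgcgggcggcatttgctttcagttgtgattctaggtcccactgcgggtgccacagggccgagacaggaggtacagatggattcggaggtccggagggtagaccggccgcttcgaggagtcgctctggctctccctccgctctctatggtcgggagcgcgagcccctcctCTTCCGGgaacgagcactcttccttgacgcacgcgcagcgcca
Uqcrh: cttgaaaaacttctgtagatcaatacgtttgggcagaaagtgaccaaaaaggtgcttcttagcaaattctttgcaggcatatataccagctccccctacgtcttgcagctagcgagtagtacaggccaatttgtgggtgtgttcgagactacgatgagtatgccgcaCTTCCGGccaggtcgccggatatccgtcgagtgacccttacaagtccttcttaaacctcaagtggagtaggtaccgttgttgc
The 2 matches in Ndufa11 overlap, and begin 97 and 91 bases before the start. Of 55 oxidative phosphorylation genes with a promoter in the table, 4 held the NRF1 letters (7.27%), against 0.849% of 27457 genes. CCGGAAG, on either strand, was in 15 of the 55 (27.3%), against 7.74% of all genes. The share was 25.5% for ribosomal protein genes, of which 21 were higher and 7 lower. Base composition was not matched between the sets.

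Ndufs3, a core subunit gene of complex I, lay between 2160.0 and 3361 at P21 (median 2700.2), against 721 to 1111 at P7 (median 954), a difference of 1.53 ± 0.11 (SE, adjusted p = 6.58e-11). The complex I gene Ndufb9 lay between 4306 and 6159 at P21 (median 5287), against 1263 to 2293 at P7 (median 1931), with 1.52 ± 0.12. Cox7a2, of cytochrome c oxidase, lay between 9927 and 13733 at P21 (median 12084), against 3379 to 4968 at P7 (median 4211), with 1.49 ± 0.11 (SE, adjusted p = 6.58e-11), and Uqcrh, of complex III, lay between 8348 and 10421 at P21 (median 8869), against 3161 to 4749.8 at P7 (median 3886), with 1.25 ± 0.10. No P21 array overlapped a P7 array in these 4 genes. Ndufa11 lay between 7916 and 11348 at P21 (median 8465), against 4727 to 6544 at P7 (median 5821), with 0.59 ± 0.10, and Atp5po, of the ATP synthase stalk, lay between 4182 and 5198 at P21 (median 4604), against 1987 to 2980.4 at P7 (median 2450.2), with 0.87 ± 0.10. These last 2 genes were named for their promoter letters after their values were seen, and neither was called in the run-blocked fit. Members not called were Ndufv3, Cox6a1, Atp5f1a, Atp5f1b, Atp5f1d, Atp5mc1 and Atp5me, with values between -0.28 and 0.19.

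**Figure D4:**
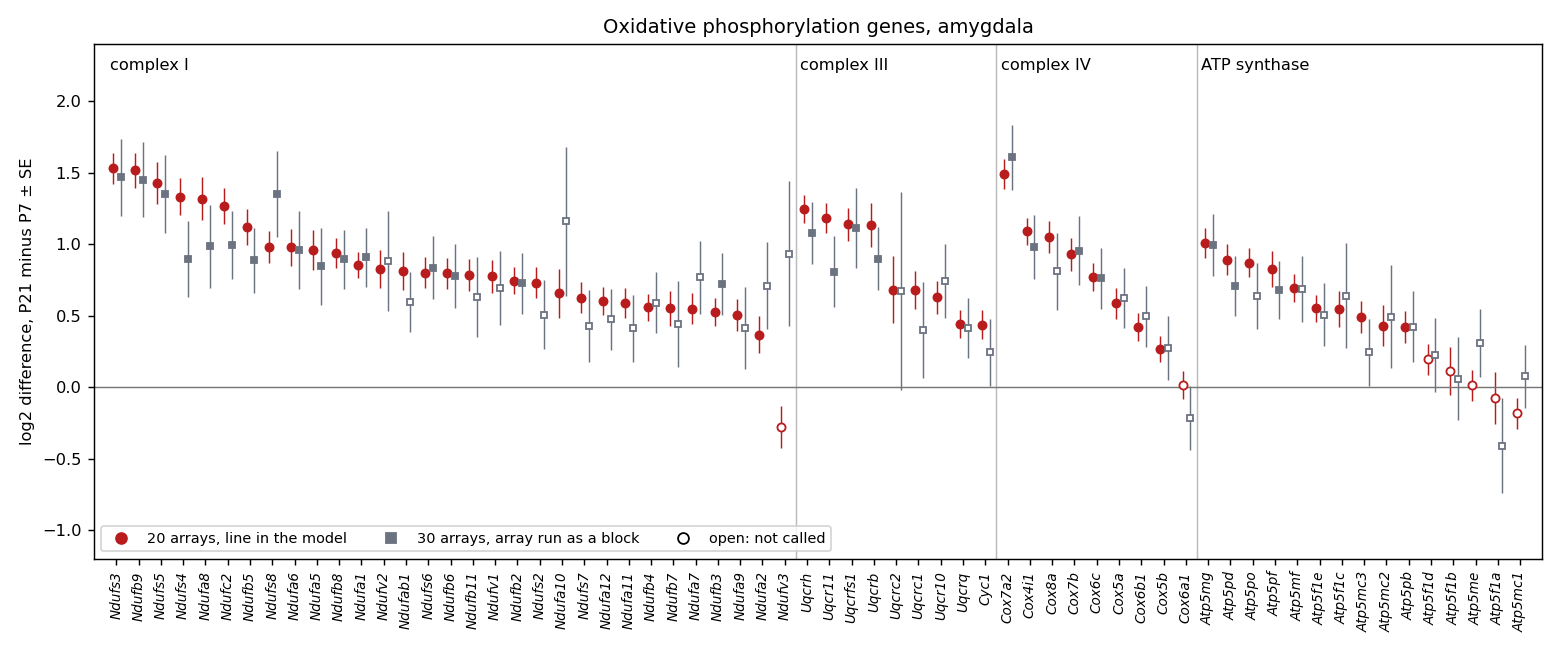
Log2 difference of P21 minus P7 ± SE for the 64 oxidative phosphorylation genes by complex, from the fit of 20 arrays (circles) and from the fit of 30 arrays with the array run as a block (squares), with open symbols where a gene was not called. In the fit of 20 arrays 57 genes are called, all above 0, and in the run-blocked fit 27.

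Averaged over the lines, glycolysis and tricarboxylic acid cycle genes had 20 higher and 0 lower of 38, with a median of 0.48. In HR 24 were higher and 0 lower, in LR 13 higher and 4 lower. Tpi1, a glycolytic isomerase gene, lay between 308 and 723 at P21 (median 604), against 124 to 259 at P7 (median 222), a difference of 1.36 ± 0.13 (SE, adjusted p = 1.71e-08). The pyruvate dehydrogenase gene Pdhb differed by 0.85 ± 0.09, the pyruvate kinase gene Pkm by 0.84 ± 0.12 and the lactate dehydrogenase gene Ldhb by 0.77 ± 0.11, each without overlap between ages. Gapdh and Ldha were not called on average, at 0.06 and -0.01. In the run-blocked fit their changes differed between the lines, and were more positive in HR than in LR by 1.22 and 1.74. The run-blocked count was 7 higher and 0 lower, and 11 members were among those whose age difference differed between the lines. Ribosomal protein genes, whose similar copies probes may not separate, had 21 higher and 7 lower of 70 with a median of 0.09, which was -0.03 with quantile normalization. Rpl9 at 1.10 ± 0.10 and Rps16 at -1.01 ± 0.13 moved in opposite directions, and the run-blocked count was 3 higher and 0 lower.

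The promoter of Hmgb2, the brightest cell cycle gene called lower, is shown with its 3 CCAAT boxes, or reverse complements, in capitals (chr16:37723951-37724200, minus strand, GRCr8, RefSeq).
Hmgb2: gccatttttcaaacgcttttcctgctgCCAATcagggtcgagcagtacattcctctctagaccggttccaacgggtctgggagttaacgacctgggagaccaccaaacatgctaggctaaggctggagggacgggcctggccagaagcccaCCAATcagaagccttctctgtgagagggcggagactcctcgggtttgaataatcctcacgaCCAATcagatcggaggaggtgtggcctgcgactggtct
The letters CCAAT, on either strand, were in 16 of 19 cell cycle promoters (84.2%), against 34.3% of all genes and 30.9% of oxidative phosphorylation genes. The GC box GGGCGG was in 84.2% of the same cell cycle promoters, against 32.4% of all genes, and the base composition was again not matched. In total 12 motifs were searched in 6 lists, and those printed were chosen after the counts were seen.

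Clock output and thyroid-related genes gave short lists with strong members. Dbp, Hlf and Tef, the 3 PAR-bZIP transcription factor genes, were all higher, with 8 other clock genes not called. Dbp lay between 469 and 691 at P21 (median 567), against 190.4 to 263 at P7 (median 234), a difference of 1.32 ± 0.11 (SE, adjusted p = 7.2e-10). Hlf differed by 1.79 ± 0.24, with a second row not called, and Tef by 0.70 ± 0.16. The core clock genes Clock, Per1, Per2 and Cry1 were at -0.22, 0.08, 0.03 and 0.06 and not called. The time of day of the dissections was not analysed here, and its part was not tested. Crym, which encodes a thyroid hormone-binding crystallin, lay between 3809.9 and 5927 at P21 (median 4196), against 1101 to 1991 at P7 (median 1420.0), with 1.59 ± 0.11 (SE, adjusted p = 2.04e-11). All 4 genes named with a difference here were called in the run-blocked fit. Without arrays 47 and 48 that fit no longer called Dbp, Hlf and Tef.

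Markers of amygdala nuclei changed singly. Of 12 measured genes 2 were higher and 4 lower, and Lypd1, Lhx6, Tshz1, Etv1 and Cyp26b1 had mean intensities of 42.8 to 60.3 at P21, under the median row. Slc30a3, the zinc transporter gene of zinc-rich glutamatergic terminals, lay between 314 and 766 at P21 (median 569), against 143 to 301 at P7 (median 234), a difference of 1.26 ± 0.17 (SE, adjusted p = 2.35e-06). Nr2f2, a transcription factor gene of caudal and medial amygdala precursors, differed by -1.14 ± 0.17 and was not called in the run-blocked fit. Prkcd, of central amygdala neurons, was at -0.43 ± 0.15 and turned to 0.18 in the run-blocked fit, where it was not called and 2 members were higher and 0 lower.

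Markers of neighbouring tissue and blood moved for some members. Of 13 blood cell genes 7 were higher and 0 lower, with a median of 0.43. The beta-globin genes Hbb and Hbb-b1, similar copies, differed by 1.23 ± 0.10 and 1.58 ± 0.10, and the summed intensity of the list lay between 98785 and 122864 at P21, against 61615 to 83703 at P7. With the run as a block 4 were higher and 0 lower. Their part in other differences was not tested. Of 11 choroid plexus and ependyma genes Rarres2 was higher, at 2.34 ± 0.13, and Folr1 lower, at -0.68 ± 0.23 (1 and 0 with the run as a block). Folr1 was not called without any 1 of the 10 LR arrays. Its change was more positive in HR than in LR by 1.77, and in HR 0 members of the list were called lower, in LR 1. Ttr, the brightest, stood at mean intensities of 44007 at P21 and 42348 at P7 (0.06, not called). Ptgds, a prostaglandin synthase gene of meninges and oligodendrocytes, was higher by 1.68 ± 0.16. Hypothalamic and thalamic genes counted 2 higher and 6 lower of 15 with a median of -0.35, and 1 and 1 with the run as a block. Pmch, the gene of melanin-concentrating hormone neurons of the lateral hypothalamus, lay between 48.97 and 757 at P21 (median 283), against 176 to 1777 at P7 (median 546), a difference of -1.31 ± 0.15 (SE, adjusted p = 2.75e-07). Its arrays overlapped across the ages, and without a line term it was not called. Striatal genes had 2 higher and 2 lower of 12 (1 and 0 with the run as a block), with Penk, the enkephalin gene that the central amygdala also uses, at 0.61 ± 0.13. How far the dissected border differed between ages was not tested.

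The remaining lists are given by their counts of higher and lower members. Axon guidance had 2 higher and 4 lower of 22 (1 and 0 with the run as a block), and monoamine receptors and synthesis 1 and 2 of 20 (0 and 0). Cholesterol synthesis and uptake had 5 and 2 of 21 (1 and 0), RNA binding and splicing 0 and 3 of 20 (1 and 0), and activity-regulated transcription 1 and 1 of 14 (0 and 0). Endocannabinoid signalling had 3 and 0 of 7 (0 and 0), imprinted growth genes 1 and 0 of 11 (0 and 0), meninges and fibroblast genes 1 and 2 of 14 (1 and 0), and cortex and claustrum genes 2 and 1 of 9 (0 and 0). Thyroid hormone axis and target genes, Crym, Mbp and Nrgn among them, had 3 and 1 of 12 (3 and 0). Heat shock and unfolded protein genes had 4 higher and 1 lower of 21 averaged over the lines (2 and 0 with the run as a block), but 8 higher and 0 lower in HR and 4 higher and 7 lower in LR, and the change of 6 differed between the lines.

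The age difference was then taken in each line. In HR 3703 rows were called (21.1%), 2495 higher and 1208 lower at P21, and in LR 4297 rows (24.5%), 2345 higher and 1952 lower. Of 2002 rows called in both lines, 1866 had the same direction. The test of the difference itself, line by age, called 1493 rows (8.52%), 980 of them with a more positive change in HR and 513 with a more negative one. Of the 1493, 568 had the same sign of change in both lines and 925 opposite signs, and the lines differed more at P7 than at P21 for 697. All 10 P7 arrays lie in 1 array run, so the line difference at P7 is within a run, while at P21 the HR arrays share their run with LR array 36 only. The run-blocked counts were 866 in HR, 1714 in LR and 685 for line by age.

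Beta-tubulin genes fell in both lines, and by more in LR. Tubb3, a tubulin of neurons, measured 614, 574, 574, 499 and 579 in HR at P21 and 871, 1062, 1226, 1215 and 1357 in HR at P7. In LR it measured 404, 446, 484, 375 and 384 at P21 and 4444, 4871, 4524, 6201 and 5320.2 at P7. The log2 change was -1.0005 in HR and -3.59 in LR, a difference of 2.59 ± 0.21 (SE, adjusted p = 1.5e-07). The lines lay closer at P21, with HR above LR, and far apart at P7, with LR above HR. Their arrays did not overlap at either age. Tubb2b changed by -1.07 in HR and -3.92 in LR (2.85 ± 0.26) and Tubb5 by -1.64 and -3.99 (2.36 ± 0.23). These copies may share probes and are not independent of each other.

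Gapdhl10, a Gapdh-like locus whose probes may not separate it from Gapdh, and Ahsa1, an Hsp90 co-chaperone gene, were higher at P21 in HR and lower at P21 in LR. Gapdhl10 averaged 645 in HR at P21 against 381 at P7, and 665 in LR at P21 against 1662 at P7, a difference of changes of 2.08 ± 0.19 (SE, adjusted p = 4.05e-07). Ahsa1 averaged 774 in HR at P21 against 412 at P7, and 912 in LR at P21 against 1797 at P7, a difference of 1.89 ± 0.18. Chi3l4, a chitinase-like gene, averaged 215 in HR at P21 against 68.4 at P7, and 50.5 in LR at P21 against 90.1 at P7 (2.49 ± 0.25). The age difference averaged over lines was not called for these 3 genes.

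The change was more positive in LR for the other 6 named genes. Mrpl50, of the mitochondrial ribosome, measured 488, 454, 504, 483 and 403 in HR at P21 and 266, 218, 338, 186 and 275 in HR at P7. In LR it measured 826, 917, 848, 1039.9 and 952 at P21 and 137, 153, 142, 192 and 150.2 at P7, and the difference of changes was -1.69 ± 0.22 (SE, adjusted p = 3.02e-05). It rose in both lines, by more in LR. Cplx2, which encodes the fusion clamp complexin 2, averaged 678 in HR at P21 against 832 at P7, and 2026 in LR at P21 against 751 at P7, a difference of -1.73 ± 0.23. Pcp4, a calmodulin regulator gene, differed by -1.23 ± 0.18, the diphthamide gene Dnajc24 by -1.29 ± 0.18, the histone methyltransferase subunit gene Dpy30 by -1.31 ± 0.18 and Hscb, of iron-sulfur cluster assembly, by -1.43 ± 0.20. All 12 line-by-age genes were called in the run-blocked fit.

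**Figure D5:**
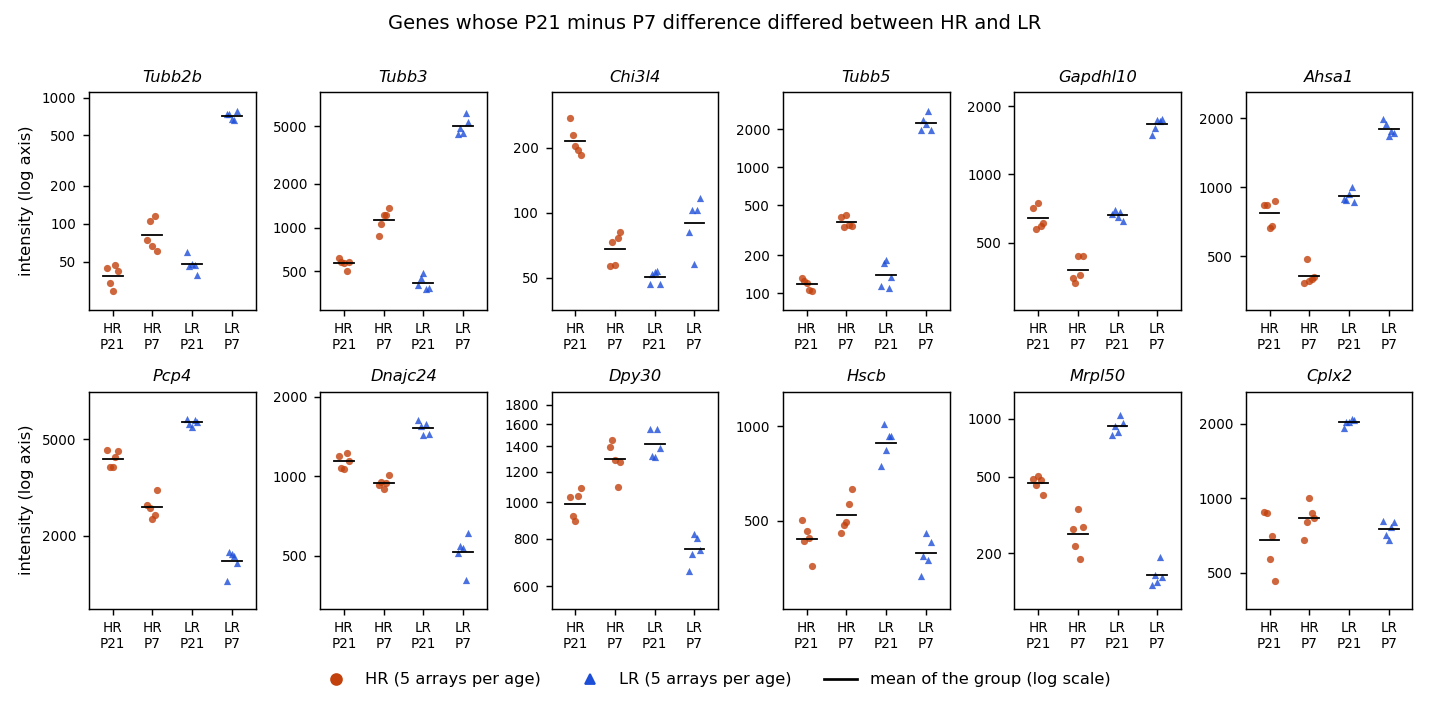
Intensity on log axes of the 12 line-by-age genes for each of 5 arrays in HR at P21, HR at P7, LR at P21 and LR at P7, with black bars at the group means. The upper row has a more positive change in HR and the lower row a more positive change in LR, and the 3 tubulin panels show LR at P7 above the other groups.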

How the data were processed

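Amygdala RNA was measured on single-colour NimbleGen arrays. The authors deposited linear intensity values per transcript, made with RMA per the submitters' processing notes (version not given), and scale, flags and filters beyond that are not given in the sources used here. After 1046 blank lines were left out, 17519 rows remained. Of these, 13441 were named through a RefSeq gene table by gene ID or accession, 3267 kept only the symbol in the file, and 811 had no symbol. The prefrontal cortex arrays were not used here. A few items that the naming rule below selects are not reported here.

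The deposited intensities were put on a log2 scale with no pseudocount and fitted with limma 3.58.1 in R 4.3.3 (line plus age on 20 arrays, or 4 group means for the change in each line and for line by age). Adjusted p-values are Benjamini-Hochberg over all rows, and the threshold was 0.05. On simulated data for the averaged comparison, over 17519 rows with 200 changed, the fit recovered 27.9%, 91.5% and 100% of changes of 0.5, 1 and 2 on the log2 scale, with 6.11% of calls false. Line by age recovered 1.04%, 19.9% and 87.4% at the same sizes, with 5.66% of calls false. In the data 4928 rows were called, far more than 200, so the rates need not hold for them. The simulation shuffled the residuals over the arrays, so it holds no effect of array run or shared code and cannot speak to either. The number of arrays limits the precision.

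The 39 gene lists and the members were chosen with earlier results of these data known. Named were the 12 genes with the largest difference in each direction among called rows without overlap between ages, brighter than the median row in the higher age and with no provisional or receptor-family symbol, up to 4 called members with the smallest p per list and direction, list-defining members not called, and 6 line-by-age genes of each sign. For a gene with several rows the brightest was used. Other called members are named to complete a list. Each list holds the genes measured among 973 fixed symbols. In promoters 12 motifs were searched on both strands, and Ndufa11 and Atp5po are named outside the rule. Alternatives covered normalization, filters, a pseudocount, array weights, the array run, the line term, the replicate number and each array left out. The code shared by arrays as a random block and the run block without arrays 47 and 48 were added after seeing the data.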

Additional observations from a re-analysis of the deposited data

Results flagged for a closer look

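The change with age differed between HR and LR, by limma's line-by-age test at an adjusted p under 0.05, for 29 of 116 genes, against 8.52% of all rows. Of the 29, 12 were among the genes because this test ranked them first, so the count is no independent share. Values are the log2 change in HR minus that in LR. The change was more positive in HR for Tmem130 by 0.90, Tubb5 by 2.36, Ybx1 by 0.63, Tubb2b by 2.85, Tubb3 by 2.59, Cspg5 by 0.83, Cldn5 by 1.90, Hmgb2 by 1.003, Kif20a by 1.06, Smarca4 by 1.54 and Calb2 by 1.62. It was also more positive in HR for Itpka by 0.75, Camk2b by 1.73, Sparcl1 by 1.52, Cacng2 by 1.40, Hlf by 1.39, Folr1 by 1.77, Ptgds by 1.12, Penk by 0.70, Gapdhl10 by 2.08, Ahsa1 by 1.89 and Chi3l4 by 2.49. It was more negative in HR for Dlg2 at -0.96, Mrpl50 at -1.69, Cplx2 at -1.73, Dpy30 at -1.31, Dnajc24 at -1.29, Hscb at -1.43 and Pcp4 at -1.23.

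In groups of 5 arrays, 26 of 464 gene-by-group sets had 1 array far from the other 4 by Dixon's test at the 95% level, and chance gives about 1 in 20. In HR at P21, values above the other 4 arrays were 2806 for Plaat3 on array 34, 748 for Mbp on array 34, 289 for Neurod6 on array 35 and 2523 for Hbb-b1 on array 34. In HR at P21, values below the other 4 arrays were 699 for Ntsr2 on array 33, 307 for Hsd11b1 on array 35 and 285 for Sv2a on array 35. In LR at P21, values above the other 4 arrays were 514 for Gsn on array 38 and 2215 for Hmgb2 on array 36. In LR at P21, values below the other 4 arrays were 366 for Cox6b2 on array 36, 35.4 for Tap1 on array 38, 72.2 for Ube2c on array 36 and 211 for Cort on array 36. In HR at P7, values above the other 4 arrays were 1708 for Sox4 on array 51, 4749.8 for Uqcrh on array 51 and 488 for Ahsa1 on array 52. In HR at P7, values below the other 4 arrays were 144 for C1qa on array 54, 93.8 for C1qb on array 54 and 1987 for Atp5po on array 54. In LR at P7, values above the other 4 arrays were 265 for Gsta1 on array 56, 189 for Cd47 on array 58 and 213 for Slco1c1 on array 57. In LR at P7, values below the other 4 arrays were 922 for Carm1 on array 60, 182 for C1qa on array 56, 2546 for Smarca4 on array 57 and 726 for Hbb-b1 on array 60. Array 36 gave 4 of these 26. Its median correlation with its group was 0.948 and its median intensity 62.9, both below those of the other LR arrays at P21. Array 59, in LR at P7, had a median intensity of 69.1, apart from the other 4 arrays of its group.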

How the results depend on the processing

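The averaged, HR, LR and line-by-age counts stayed within 1.5 times under all settings other than the assumed array run as a block. With 30 arrays that block gave 1460 rows for the averaged comparison (1243 higher, 217 lower), 866 in HR (714 and 152), 1714 in LR (1324 and 390) and 685 for line by age (499 and 186), and 1092 of its averaged calls were shared with the fit of 20 arrays. Without arrays 47 and 48, chosen after seeing the data, it gave 355 (259 and 96), 198 in HR (140 and 58), 816 in LR (542 and 274) and 834 for line by age (602 and 232). The share of averaged calls that were higher was 85.1% with 30 arrays, 60.3% without the block and 52.2% with quantile normalization. Of 128 named results, 84 kept a call and its direction with the block and 30 arrays, 5 were called in neither fit, 30 lost the call and 9 turned: RT1-M6-1 to 0.50, Fa2h to 1.02, Cd68 to 0.0174, Cd53 to 0.0144, Ube2c to 0.21, Crh to 0.46, Cacna1h to 1.66, Cacng2 to 0.0931 and Prkcd to 0.18. Of the 9 that turned with 30 arrays, only Cacna1h was called. Without arrays 47 and 48, 63 of the 128 lost the call with the direction kept, and 6 turned and were not called. The other 59 were called, or not called, as in the 20-array fit. The 6 were RT1-M6-1, which turned to 0.22, Fa2h to 1.08, Cd53 to 0.22, Dpysl3 to -0.00197, Cacna1h to 1.29 and Cacng2 to 0.0044. Genes called with 30 arrays but not without arrays 47 and 48 included Mbp, Gsn, Aif1, Cd47, B2m, Sox4, Stmn1, Nrgn and Dlg2. Sv2a, Camk2b, Gria2, Slc30a3, Tpi1, Pdhb, Hbb, Ptgds and Pmch were also among them. The cause was not tested. Leaving out 1 array at a time gave 4573 to 4954 averaged calls (2774 to 3121 higher, 1793 to 1936 lower), 3156 to 3891 in HR, 3851 to 4413 in LR and 1217 to 1701 for line by age. In the 32 settings without the run block 0 named results turned, and 6 lost their call in at least 1 (Cplx2, Folr1, Prkcd, Cd53, Neurod6 and Pmch), with Cplx2 and Folr1 lost whichever of the 10 LR arrays was left out. The shared code as a random block, also added after seeing the data, lost no named call. With the replicate block the counts were 4709 averaged, 3562 in HR, 4178 in LR and 1327 for line by age. Same-numbered samples correlated at -0.022 to 0.024 around their group means, so no pairing by number was seen. A correlation over all rows could miss a pairing that touches few of them. The values used here carry no detection flags, so signal over background is not known.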
